A study of Mus musculus with 10 samples.

Results

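The comparison is that of mouse macrophages after 2 h of treatment with 10 nM Kdo2-lipid A against the same treatment for 1 h. It takes in 4 of the 10 libraries of the series, 2 for each time, which were paired by the experiment number in their labels. Of 23284 genes in the count table, 12918 had enough counts to be tested and 6164 had no count in any library. All groups were macrophages grown from the bone marrow of C57BL/6J mice in medium with recombinant M-CSF, the growth factor that drives marrow cells to become macrophages. The other groups are untreated cells (0 h) and cells given 0.03 nM for 1 h or 2 h, each with 2 libraries, and they serve here as the level before treatment and as the same step in time at a low dose. The untreated cells were harvested at 0 h only, so what 1 further hour in culture does without the ligand was not measured. The experiments are described as independent, and whether each used its own animals was not stated, so p-values measure the spread between these libraries.

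Kdo2-lipid A is the active core of bacterial lipopolysaccharide and a ligand of Toll-like receptor 4 (TLR4). TLR4 signals through the adaptors MyD88 and TRIF. The MyD88 arm activates MAP kinases and NF-kB, which switch on immediate-early genes, cytokines and chemokines, together with inhibitors that feed back on the same kinases and on NF-kB. The TRIF arm activates IRF3 and leads to interferon-beta, which the cells secrete and then sense through their own interferon receptor, so that STAT proteins and interferon regulatory factors act on a later set of genes. Short-lived mRNAs such as those of Fos, Tnf and Cxcl2 are degraded quickly once transcription slows, partly by zinc-finger proteins of the Zfp36 family.

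The stretches below are the 150 bases before the annotated start of 8 named genes, chosen because these windows hold the motifs described here, written 5′ to 3′ on the strand of the gene (RefSeq, GRCm38.p6). Capitals mark matches, on either strand, to GAAANNGAA, the core of the element bound by interferon regulatory factors and ISGF3, to GGNNTTTCC, a short form of the site bound by NF-kB, or to TGACGTCA, the cyclic AMP response element. The first group is of genes that rose from 1 h to 2 h: Isg15 (chr4:156200819-156200968, minus strand), Igtp (chr11:58199406-58199555, plus), Irgm2 (chr11:58214827-58214976, plus), Cd274 (chr19:29367288-29367437, plus) and Socs1 (chr16:10785537-10785686, minus).
Isg15: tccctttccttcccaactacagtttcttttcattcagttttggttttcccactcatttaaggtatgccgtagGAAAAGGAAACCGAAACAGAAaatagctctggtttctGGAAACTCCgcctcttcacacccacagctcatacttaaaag
Igtp: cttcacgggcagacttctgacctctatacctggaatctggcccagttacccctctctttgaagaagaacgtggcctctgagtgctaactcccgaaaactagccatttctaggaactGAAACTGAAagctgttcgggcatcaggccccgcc
Irgm2: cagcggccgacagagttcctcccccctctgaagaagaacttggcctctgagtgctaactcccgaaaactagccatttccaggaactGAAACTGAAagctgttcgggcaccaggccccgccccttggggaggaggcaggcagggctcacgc
Cd274: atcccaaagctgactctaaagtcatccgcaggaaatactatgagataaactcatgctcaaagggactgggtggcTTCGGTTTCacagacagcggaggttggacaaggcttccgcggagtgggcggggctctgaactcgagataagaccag
Socs1: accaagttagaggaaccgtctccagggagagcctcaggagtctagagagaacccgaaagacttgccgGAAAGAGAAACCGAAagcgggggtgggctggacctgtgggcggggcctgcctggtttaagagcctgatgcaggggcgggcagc
The second group is of genes that fell: Cxcl1 (chr5:90891095-90891244, plus), Cxcl2 (chr5:90903749-90903898, plus) and Dusp8 (chr7:142095285-142095434, minus).
Cxcl1: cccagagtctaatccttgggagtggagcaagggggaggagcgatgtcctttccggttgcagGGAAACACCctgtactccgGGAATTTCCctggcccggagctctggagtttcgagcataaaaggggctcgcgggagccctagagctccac
Cxcl2: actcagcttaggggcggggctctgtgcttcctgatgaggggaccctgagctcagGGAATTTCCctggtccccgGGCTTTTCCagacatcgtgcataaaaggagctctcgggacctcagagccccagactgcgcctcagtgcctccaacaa
Dusp8: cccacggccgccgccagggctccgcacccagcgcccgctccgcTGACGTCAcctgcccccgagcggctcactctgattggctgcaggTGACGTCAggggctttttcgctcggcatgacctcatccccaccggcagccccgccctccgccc
Isg15 holds 3 overlapping copies of GAAANNGAA and 1 of GGNNTTTCC, Socs1 holds 2 of GAAANNGAA, and Igtp, Irgm2 and Cd274 hold 1 each. Cxcl1 and Cxcl2 hold 2 copies of GGNNTTTCC each, and Dusp8 holds 2 copies of TGACGTCA. Many genes with large changes held none of the motifs searched between 250 bases before and 50 after the start, among them Abtb2, Lhx2, Spsb1, Ccnj, Nr4a1, Frat1, Fos and Id3, and Cxcl3, Cxcl9 and Cxcl10, which rose, hold GGNNTTTCC as Cxcl1 and Cxcl2 do. A match describes the letters only and does not show that a factor was bound.

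Between 1 h and 2 h, 5645 of 12918 tested genes (43.7%) changed. Of these, 2827 genes (21.9% of those tested) were higher at 2 h and 2818 (21.8%) were lower. The counts of called members given for gene lists below are to be read against these shares. The change was at least 2-fold for 812 genes that rose and 813 that fell, and at least 4-fold for 242 and 146 genes. Every called gene moved in the same direction in both experiments. The calls come from these same libraries, so that agreement in direction is no separate check. The log2 differences of the experiments correlated across 10454 genes whose mean log2 CPM was 1 or more (Pearson's r = 0.919, a description, since genes are not independent replicates). In 3355 of the tested genes the levels at 1 h and 2 h overlapped. Scaling by library totals alone, in place of TMM, moved the median log2 change of all genes from 0.00 to -0.19 and the calls to 1823 higher and 4357 lower, so that changes smaller than that shift depend on the scaling. The TMM factors were 0.88 and 0.90 at 1 h and 0.79 and 0.77 at 2 h.

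**Figure D1:**
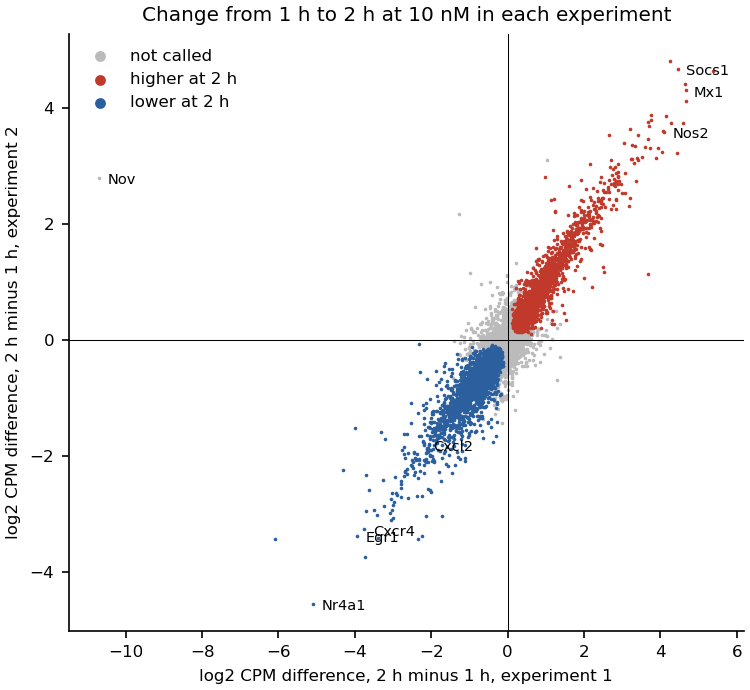
Log2 CPM difference between 2 h and 1 h at 10 nM for each gene whose mean log2 CPM was 1 or more, in experiment 1 (horizontal axis) and experiment 2 (vertical axis). Genes called higher (red) and lower (blue) lie along the diagonal in the upper right and lower left; Nov, at the far left, differed in sign between the experiments and was not called.

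Library totals were 33179599 to 42167096 counts over the series, and the 10 most abundant genes took 8.18% to 8.65% of the counts at 10 nM. The defining markers of macrophages were high in the 10 nM libraries, with a summed level of the 24 identity genes of 45300 to 46800 CPM at 1 h and 46400 to 48100 at 2 h. Summed levels at 1 h and 2 h were 121 to 125 and 176 to 178 CPM for 12 neutrophil markers, 45.8 to 53.1 and 58.7 to 61.5 for 11 dendritic cell markers, 34.4 to 37.6 and 32.3 to 39.2 for 10 T and NK cell markers, 5.18 to 8.24 and 6.94 to 7.32 for 8 B cell markers, 1.45 to 1.69 and 0.752 to 1.31 for 8 erythroid markers, 4.39 to 5.29 and 4.76 to 4.82 for 7 mast cell and basophil markers, and 75.2 to 141 and 94.4 to 170 for 14 stromal and endothelial markers. No counts were found at 10 nM for Cd3g, Prf1 and Gzma of T and NK cells, for Fcer1a and Tpsb2 of mast cells and basophils, or for 5 erythroid genes including Klf1 and Alas2. Only 1 of the 10 T and NK cell markers had enough counts to be tested. The same held for 4 of 8 B cell, 1 of 8 erythroid, and 3 of 7 mast cell and basophil markers. Among the neutrophil markers 4 of 11 tested genes rose (36.4%, against 21.9% of all tested genes). None was called lower, though the lowest log2 change in the list was -1.28. Those that rose were Csf3r by 0.57 ± 0.07 (log2, SE), Ngp by 0.65 ± 0.16, S100a8 by 0.49 ± 0.17 and S100a9 by 0.47 ± 0.15. Of these only Csf3r kept its call in every alternative run. Of 13 stromal and endothelial genes, Kdr, Pdgfrb and Timp1 rose (23.1%, near the 21.9% of all tested genes) and none fell, and the call of Timp1 was lost without the block (adjusted p = 0.09), without the first library at 2 h (0.0875) and without the second at 1 h (0.103). The part of such cells in other results was not tested, and in whole-culture RNA fewer cells of a type and less RNA per cell cannot be told apart.

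The early transcription factors fell. Of 30 immediate-early genes, all tested, 20 were lower at 2 h than at 1 h and 1 was higher (up to 3 in the alternatives, without either library at 0.03 nM and 2 h among them), with a median log2 change of -1.04 against 0.00 over all tested genes. Nr4a1, an orphan nuclear receptor (chr15:101097277-101105225 in mm9), had 8.91 and 9.64 CPM in untreated cells, 393.5 and 361.3 at 1 h, and 11.5 and 15.4 at 2 h in experiments 1 and 2. Its level at 2 h was 28.4-fold lower than at 1 h (log2 change -4.83 ± 0.16 (SE), adjusted p = 3.75e-08), and both libraries at 2 h lay near the untreated level. Egr1, a zinc-finger factor induced by MAP kinase signalling, had 4.19 and 5.16 CPM untreated, 216.8 and 232.7 at 1 h, and 14.1 and 22.3 at 2 h (log2 change -3.66 ± 0.13, adjusted p = 3.75e-08). Its relative Egr2 had 457.3 and 442.1 CPM at 1 h and 40.5 and 57.4 at 2 h.

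Members of the AP-1 family moved unequally. Fos had 68.5 and 94.8 CPM untreated, 165.5 and 186.6 at 1 h, and 17.5 and 25.5 at 2 h (log2 change -3.06 ± 0.10), so that both libraries at 2 h were below both untreated libraries. Fosb, from 15.6 and 13.8 CPM at 1 h to 1.84 and 1.71 at 2 h, fell as far (log2 change -3.05 ± 0.18). Jun (log2 change -1.14) and Junb (-0.79) fell as well, whereas Fosl1 (0.14), Fosl2 (0.15), Jund (0.37) and Atf3 (0.13) were not called. Outside this family, Myc fell from 110.2 and 112.5 to 26.4 and 31.7 CPM, and Btg2, an antiproliferative gene, from 550.8 and 542.6 to 66.5 and 80.7 CPM. The 1 member of the list that rose was Mafk, a small Maf protein that partners other leucine-zipper factors: it had 38.9 and 37.9 CPM untreated, 35.0 and 36.5 at 1 h, and 164.9 and 182.7 at 2 h (log2 change 2.28 ± 0.08, adjusted p = 3.75e-08). The early genes were short, with a median span of 4728.5 bases and a median of 3.5 exons, against 20659.5 bases and 9 exons over all tested genes. Genes that fell at least 4-fold had a median span of 15271 bases and 5.5 exons, and 21.2% of them had 1 or 2 exons, against 8.51% of all tested genes. Genes that rose at least 4-fold also had few exons, with a median of 6, and 17.4% of them had 1 or 2. Genes that fell less than 2-fold had a median span of 28684 bases. Change and exonic length correlated weakly across genes in each experiment (Spearman's rho -0.214 and -0.134).

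**Figure D2:**
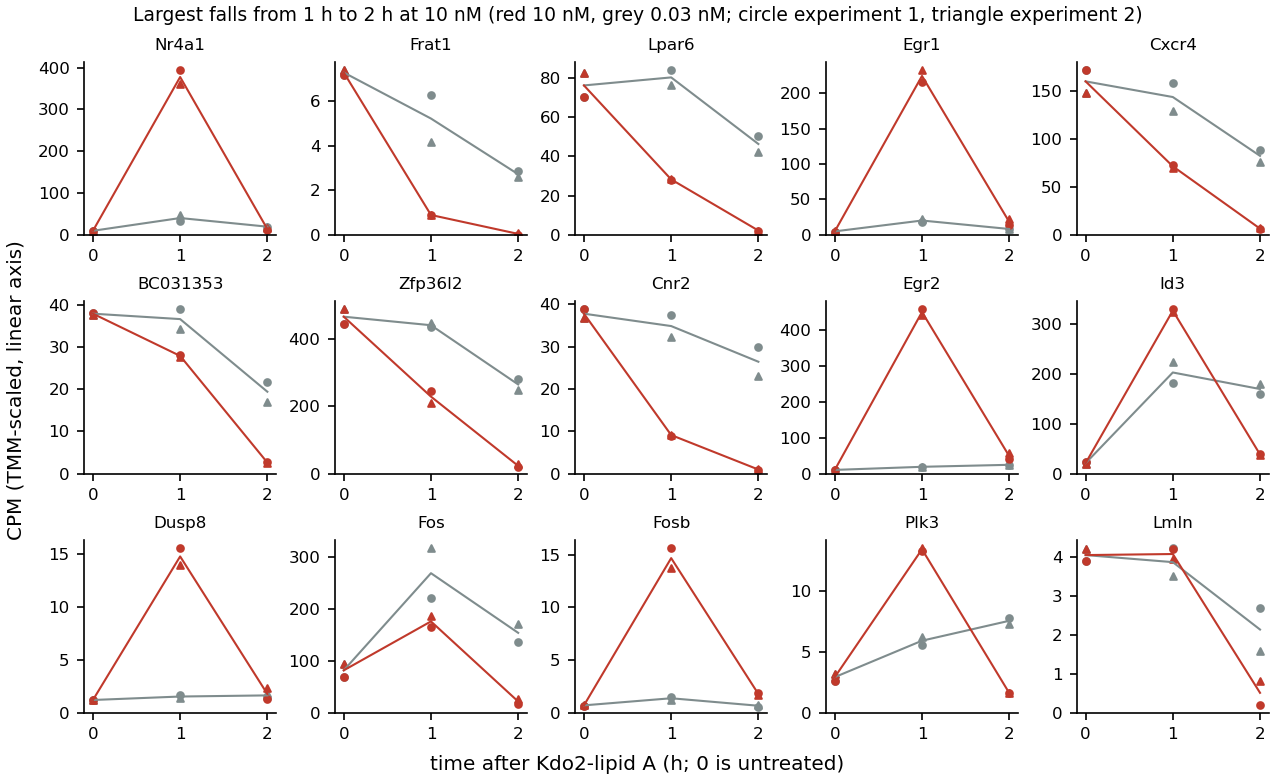
Levels (CPM, linear axes) of the 15 genes with the largest falls from 1 h to 2 h at 10 nM, against hours of treatment at 10 nM (red) and 0.03 nM (grey), with 0 h the untreated cells; circles are experiment 1, triangles experiment 2 and lines the mean. Genes such as Nr4a1, Egr1 and Egr2 peaked at 1 h, while Lpar6, Cxcr4, Zfp36l2 and Cnr2 stepped down at both times.

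The largest falls were mostly of 2 shapes. Nr4a1, Egr1, Egr2, Id3, Dusp8, Fos, Fosb and Plk3 were above the untreated level at 1 h and dropped by 2 h. Id3, an inhibitor of basic helix-loop-helix factors, had 22.4 and 19.6 CPM untreated, 329.0 and 322.3 at 1 h, and 39.5 and 37.2 at 2 h. Plk3, a kinase of the polo family, fell from 13.3 and 13.6 to 1.64 and 1.61 CPM, but its exons overlap those of Tctex1d4 on the opposite strand and reads of the 2 genes cannot be told apart here. Cxcr4, Lpar6, Cnr2, Zfp36l2, Frat1 and BC031353 stepped down from the untreated level. Cxcr4, the receptor of the chemokine CXCL12, had 171.7 and 148.4 CPM untreated, 73.2 and 69.6 at 1 h, and 5.42 and 7.18 at 2 h, which was 11.3-fold lower than at 1 h (log2 change -3.50 ± 0.14, adjusted p = 9.6e-08). Lpar6, a lysophosphatidic acid receptor, went from 70.2 and 82.4 CPM untreated to 28.0 and 28.6 at 1 h and 2.07 and 2.12 at 2 h. Cnr2, the cannabinoid receptor of immune cells, went from 38.8 and 36.8 to 8.99 and 9.25 and then to 0.821 and 1.13 CPM. BC031353 had 38.1 and 37.7 CPM untreated, 28.2 and 27.6 at 1 h, and 2.69 and 2.57 at 2 h, most of its fall lying in the second hour. Frat1, with 64 counts at 1 h and 2 counts at 2 h over both experiments, was 26.4-fold lower at 2 h, with a 95% counting interval of 7.01 to 223, and its fitted log2 change of -4.60 was -3.53 and -8.20 without the first and the second library at 2 h. Lmln had 3.88 and 4.2 CPM untreated, 4.19 and 3.94 at 1 h, and 0.197 and 0.821 at 2 h, so its fall lay between 1 h and 2 h. It rested on 30 counts at 2 h, and its ratio was 8.08 (5.54 to 12.2, counting error only). Its fitted log2 change of -2.9997 was -2.20 without the first and -4.46 without the second.

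Inhibitors of MAP kinases moved both ways, and factors that destroy cytokine mRNA were mostly lower at 2 h. Of 15 MAP kinase phosphatases and Sprouty or Spred inhibitors, 7 fell and 4 rose (46.7% and 26.7%, against 21.8% and 21.9% of all tested genes). Dusp8, which acts on stress kinases, had 1.17 and 1.23 CPM untreated, 15.6 and 13.96 at 1 h, and 1.25 and 2.29 at 2 h (log2 change -3.07 ± 0.24, adjusted p = 3.63e-06). Dusp5, a nuclear ERK phosphatase, fell from 134.3 and 125.0 to 24.1 and 29.0 CPM, and Dusp4 from 71.6 and 66.6 to 16.0 and 22.6 CPM. Dusp1, which limits p38 and JNK, had 9.65 and 14.4 CPM untreated, 1123 and 1042 at 1 h, and 453.9 and 504.0 at 2 h (log2 change -1.19 ± 0.17), so it stayed far above the untreated level. Dusp14, Dusp16, Dusp2 and Spred1 rose, a count of 4 that was 2 without the first library at 2 h.

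Among 9 mRNA decay factors, 7 fell and 2 were not called (both were called higher with the compared groups alone and without either library at 0.03 nM and 2 h). Zfp36l2 had 444.1 and 488.9 CPM untreated, 246.7 and 211.3 at 1 h, and 19.0 and 27.4 at 2 h (9.92-fold lower than at 1 h, adjusted p = 3.71e-07). Its relatives were induced before they fell: Zfp36, which encodes tristetraprolin, had 84.4 and 91.4 CPM untreated, 2737 and 2685 at 1 h, and 828.8 and 836.6 at 2 h, and Zfp36l1 fell from 882.1 and 830.0 to 161.9 and 217.6 CPM. The AU-rich element ATTTATTTA, to which this family binds in RNA, was present in the 3′ UTR of 7.59% (95% interval 6.66 to 8.65) of genes that fell, 6.39% (5.53 to 7.37) of genes that rose and 6.52% (6.09 to 6.97) of all tested genes, and in 6 of 22 inflammatory cytokine genes. The share was 9.51% (7.64 to 11.8) among genes that fell at least 2-fold, an interval that overlaps that of the genes that rose at least 2-fold (7.49%, 5.83 to 9.58).

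Of 18 NF-kB subunits and inhibitors, 11 rose and 3 fell, but with library totals 8 rose and 6 fell. The precursor subunits Nfkb1 (565.4 and 592.7 CPM at 1 h, 1174 and 1200 at 2 h) and Nfkb2 (514.9 and 552.5, then 1002 and 1006) rose, with log2 changes of 1.04 ± 0.07 and 0.91 ± 0.09. The early inhibitors Nfkbia (1609 and 1595 CPM at 1 h, 1717 and 1616 at 2 h) and Tnfaip3 (3809 and 3734, then 3193 and 3379) were not called (adjusted p = 0.649 and 0.195). Tnfaip3 was called lower, at adjusted p = 0.0177 and 2.36e-07, with library totals and with the compared groups fitted alone. Nfkbid, a nuclear inhibitor, fell from 141.7 and 134.0 to 43.6 and 45.5 CPM.

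Of 8 SOCS family genes, 5 rose and none fell, with a lowest count of 3 among the alternatives, without the first library at 1 h or the second at 2 h. Socs1, which blocks Janus kinases (chr16:10783902-10785629 in mm9), had 1.57 and 1.25 CPM untreated, 6.27 and 6.05 at 1 h, and 137.3 and 154.3 at 2 h. This was a rise of 23.6-fold (log2 change 4.56 ± 0.25, adjusted p = 1.02e-06), and the levels at 1 h and 2 h did not come near each other. Cish rose from 36.7 and 38.1 to 174.1 and 154.1 CPM. Socs3, the inhibitor of the IL-6 receptor, had already reached 1858 and 1786 CPM at 1 h from 2.38 and 3.64 untreated, and at 2 h it had 2022 and 1970 CPM (log2 change 0.13 ± 0.20, adjusted p = 0.638).

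Cxcl1 and Cxcl2, which attract neutrophils, fell, while the ligands of CXCR3 rose. Cxcl2 (chr5:91332925-91334964 in mm9) had 1.12 and 1.69 CPM untreated, 3557 and 3348 at 1 h, and 783.9 and 952.8 at 2 h, which was 4.02-fold lower (log2 change -2.01 ± 0.14, adjusted p = 2.82e-06). Cxcl1 fell from 832.2 and 698.2 to 266.8 and 249.9 CPM (log2 change -1.56 ± 0.08). Cxcl3, of the same family, rose from 37.3 and 37.8 to 89.1 and 100.4 CPM, and the other 2 of the 5 neutrophil-attracting CXC chemokines were not called. The 3 ligands of CXCR3, a receptor of activated T cells, all rose: Cxcl9 from 5.87 and 7.75 to 76.8 and 100.5 CPM, Cxcl10 from 1532 and 1422 to 4501 and 4764 CPM, and Cxcl11 from 9.54 and 10.9 to 60.7 and 85.4 CPM. Of 12 CC chemokines, 9 rose and 1, Ccl2, fell, but only 4 rises were called without the second library at 1 h and 5 without the first at 2 h, and the fall was not called without any 1 of 3 libraries (the first at 1 h, the second at 2 h, the first at 0.03 nM and 2 h). Ccl5, which attracts T cells and monocytes, had 215.5 and 248.5 CPM at 1 h and 916.7 and 949.0 at 2 h (log2 change 2.02 ± 0.33, adjusted p = 0.00167), and Ccl3 had 1334 and 1287 CPM at 1 h and 1293 and 1433 at 2 h (adjusted p = 0.771).

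Cytokines moved both ways. Of 22 inflammatory cytokines tested, 12 rose and 8 fell, and the falls numbered 5 without the first library at 1 h. Tnf had 7.77 and 9.88 CPM untreated, 3835 and 3662 at 1 h, and 1855 and 1778 at 2 h (2.06-fold lower, adjusted p = 9.7e-05). Il1b went from 5176 and 5422 to 2861 and 3422 CPM, a call lost in several alternatives (highest adjusted p = 0.102, without the first library at 0.03 nM and 2 h; 0.0907 without the block). Csf2, the granulocyte-macrophage growth factor, had no count in untreated cells, 26.2 and 23.8 CPM at 1 h, and 3.25 and 3.28 at 2 h (log2 change -2.93 ± 0.14). Lif, Osm, Csf3 and Il23a fell too. Among the cytokines that rose, Il27 went from 32.5 and 49.1 to 258.9 and 283.5 CPM (log2 change 2.77 ± 0.12), Il15 from 41.0 and 42.7 to 212.0 and 224.1 (2.38 ± 0.08), Tnfsf15 from 12.8 and 12.3 to 82.8 and 106.1 (2.90 ± 0.18), and Il12b from 234.5 and 222.5 to 348.8 and 367.1 (0.65 ± 0.08). Il6 rose from 74.8 and 69.1 to 132.9 and 140.1 CPM (0.93 ± 0.12). Edn1, the vasoconstrictor endothelin, rose from 6.88 and 8.14 to 73.2 and 70.3 CPM.

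Anti-inflammatory genes also moved both ways, with 3 of 6 higher and 2 lower. Il10 went from 165.2 and 152.8 to 72.3 and 82.2 CPM (log2 change -1.05 ± 0.17, adjusted p = 0.000715). Il1rn, the antagonist of the IL-1 receptor, rose from 237.1 and 262.6 to 661.5 and 769.1 CPM (1.51 ± 0.12), and Gdf15, a stress-induced cytokine, fell from 164.2 and 140.6 to 17.1 and 26.3 CPM (-2.83 ± 0.21).

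Interferon-beta fell while interferon-stimulated genes rose. Ifnb1 had 0.0953 and 0.145 CPM untreated, 102.6 and 94.0 at 1 h, and 32.96 and 46.3 at 2 h (log2 change -1.33 ± 0.13, adjusted p = 2.13e-05). The receptor chains Ifnar1 and Ifnar2 rose by 0.71 ± 0.08 and 0.48 ± 0.07 on the log2 scale. All 33 antiviral interferon-stimulated genes tested were higher at 2 h (29 in the fit without the block, the fewest in any alternative run), with a median log2 change of 1.64. All 13 guanylate-binding proteins (GBPs) and immunity-related GTPases (IRGs) tested rose (median 2.41), as did all 7 Schlafen genes (median 1.94).

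Among the antiviral genes the largest rise was that of Mx1, a GTPase gene (chr16:97668642-97684513 in mm9): it had 47.4 and 70.1 CPM untreated, 69.6 and 104.9 at 1 h, and 1754 and 2072 at 2 h (22.5-fold, log2 change 4.49 ± 0.25, adjusted p = 1.43e-06). Its levels at 1 h lay close to those in untreated cells, and its rise fell within the second hour. Mx2 rose from 40.8 and 50.7 to 717.6 and 735.3 CPM. Rsad2, which encodes viperin, rose from 487.5 and 581.6 to 4652 and 5983 CPM (9.89-fold), Cmpk2 from 160.5 and 183.2 to 1719 and 2133, Ifit1 from 370.9 and 375.1 to 2329 and 2541, and Ifit2 from 353.0 and 424.4 to 2619 and 3478. Isg15, a ubiquitin-like modifier with 3 copies of GAAANNGAA before its start, had 24.3 and 35.6 CPM untreated, 138.7 and 158.7 at 1 h, and 463.3 and 499.3 at 2 h (log2 change 1.70 ± 0.28). Usp18, which removes ISG15 from proteins, rose from 42.4 and 51.4 to 268.2 and 302.1 CPM.

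Among the GTPases that act on vacuoles with bacteria and parasites, Igtp had 33.3 and 38.7 CPM untreated, 40.9 and 45.1 at 1 h, and 302.9 and 336.0 at 2 h (2.89 ± 0.14), and Irgm2 63.4 and 84.8, then 61.5 and 71.8, then 441.4 and 482.3 (2.80 ± 0.13). Iigp1 rose from 16.7 and 19.8 to 153.5 and 245.5 CPM, and Gbp4 from 2.78 and 2.49 to 17.6 and 28.8. Gbp2 was already above the untreated level at 1 h (51.7 and 57.0 CPM untreated, 215.3 and 232.7 at 1 h) and reached 629.3 and 731.4 at 2 h. Tgtp1 and Tgtp2, which share exons in the table and whose counts are therefore uncertain, rose by 4.75 ± 0.32 and 3.72 ± 0.26. In the Schlafen family, Slfn1 rose from 2.43 and 7.45 to 52.4 and 69.5 CPM and Slfn8 from 214.7 and 254.9 to 840.8 and 963.8.

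The core GAAANNGAA (both strands, 250 bases before to 50 after the start) was present in 9 of 10 promoters of the GBP and IRG genes matched, 16 of 28 of the antiviral genes and 4 of 8 of the Schlafen genes. For type I interferons and their receptor it was 3 of 6, and for interferon regulatory factors, STATs and Janus kinases 4 of 24. Other lists ran from none, as in 0 of 23 for heat shock and unfolded protein response genes, to 6 of 18 for ribosomal proteins. It was found in 10.2% (95% interval 9.15 to 11.4) of promoters of genes that rose, 5.74% (4.96 to 6.64) of those that fell and 7.36% of those of all tested genes. For GGNNTTTCC the shares were 7.38%, 5.37% and 6.16%, with 9 of 20 promoters of the NF-kB genes. TGAGTCA, the AP-1 site, was found in 4.54% of promoters of genes that rose, 2.89% of those that fell and 3.98% of all. TGACGTCA was found in 2.66%, 3.36% and 2.99%, and CCATATTAG, a form of the serum response element, in 2, 2 and 9 promoters.

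Factors of interferon signalling were mostly higher at 2 h. Of 19 interferon regulatory factors, STATs and Janus kinases, 13 rose and 3 fell, and the falls numbered 1 without either library at 1 h or the first at 2 h, and 5 with library totals. Stat5a, which transmits cytokine signals, had 24.7 and 24.2 CPM untreated, 49.7 and 57.2 at 1 h, and 347.8 and 371.4 at 2 h (2.75 ± 0.09, adjusted p = 3.75e-08). Irf8, a factor of the macrophage lineage, was lower at 1 h (198.8 and 195.3 CPM) than in untreated cells (276.5 and 270.6) and higher than both at 2 h (457.3 and 518.6). Irf1 rose from 982.3 and 905.0 to 1824 and 1749 CPM. Irf7, the factor that amplifies interferon genes, rose from 144.5 and 201.5 to 430.8 and 571.5 CPM (1.54 ± 0.22, adjusted p = 0.000412), a call lost without the block (0.0635). Irf4 fell from 17.0 and 17.2 to 3.41 and 4.10 CPM.

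**Figure D3:**
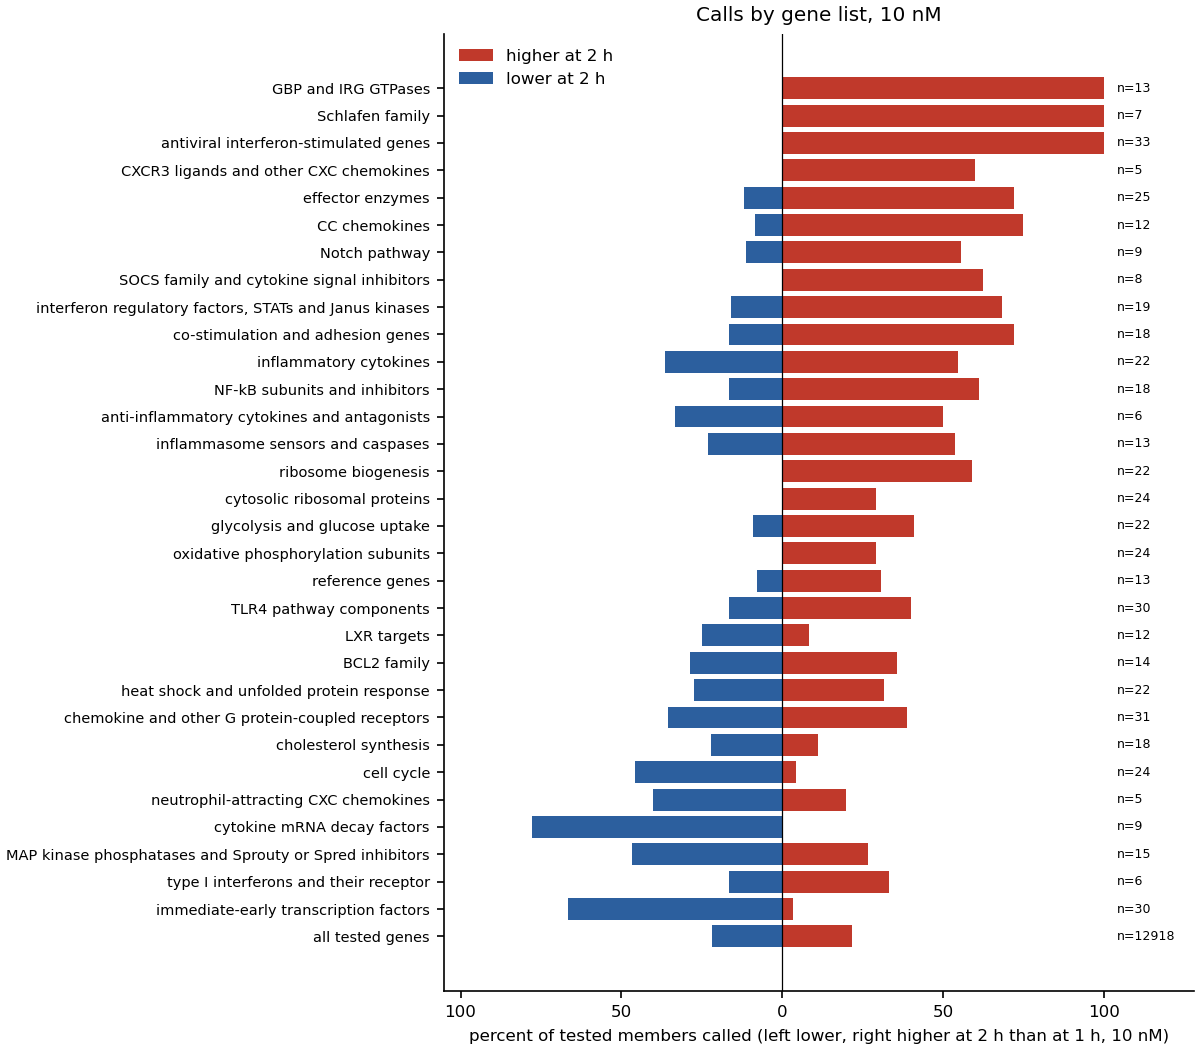
Share of the tested members of gene lists called higher (red, to the right) or lower (blue, to the left) at 2 h than at 1 h at 10 nM, in percent, ordered by the median log2 change, with the number of tested members at the right and all tested genes in the bottom row. The lists of cell type markers and of osmolyte and other transporters are not drawn. All tested members of the GBP and IRG, Schlafen and antiviral lists were higher, while mRNA decay factors and immediate-early genes were mostly lower.

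Effector enzymes were mostly higher, with 18 of 25 raised and 3 lowered (13 raised with library totals, and 1 lowered without either library at 2 h or the first at 1 h). Nos2, the inducible nitric oxide synthase, had 0.143 and 0.0964 CPM untreated, 2.69 and 4.47 at 1 h, and 46.0 and 53.7 at 2 h (14.3-fold, log2 change 3.83 ± 0.34, adjusted p = 2.17e-05). Mmp13, a collagenase, rose from 115.9 and 146.4 to 854.2 and 1039 CPM, and Hdc, which makes histamine, from 1.88 and 1.59 to 15.7 and 16.7. Irg1, the itaconate-producing enzyme of mitochondria, had 1960 and 2196 CPM at 1 h and 4095 and 4527 at 2 h, and Ptgs2, which encodes COX-2, 1148 and 1049 and then 663.0 and 749.7. The levels at 1 h and 2 h did not overlap for these 2 genes, as for all but 3355 of the 12918 tested genes. Their adjusted p-values of 0.0463 and 0.0317 were 0.166 and 0.0756 without the block. With DESeq2 they were 0.0883 and 0.23, and each call was lost in 11 of 18 alternatives. Plau, the urokinase plasminogen activator, fell from 157.2 and 161.1 to 43.5 and 57.6 CPM.

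Several of the largest rises were of genes outside these lists. Abtb2, a BTB-domain protein, had 0.548 and 1.18 CPM untreated, 1.85 and 3.54 at 1 h, and 77.5 and 88.4 at 2 h (31.4-fold, log2 change 4.97 ± 0.23, adjusted p = 2.35e-07). Lipg, an endothelial-type lipase, rose from 1.53 and 2.30 to 38.3 and 49.0 CPM, and the homeobox gene Lhx2 from 0.636 and 0.529 to 12.4 and 15.2 CPM (42 counts over the libraries at 1 h). Spsb1, a SOCS-box protein, rose from 1.01 and 2.12 to 25.8 and 37.0 CPM, Zhx2 from 4.66 and 6.77 to 90.9 and 90.4, Cnn3 from 1.36 and 1.88 to 22.9 in both libraries, and B3gnt7 from 0.810 and 0.582 to 11.2 and 8.75. Shisa3 had no count in untreated cells and rose from 1.94 and 1.80 to 26.2 and 25.2 CPM. Ccnj, a cyclin, took a course of its own among these 15 genes: it had 9.08 and 9.16 CPM untreated, dropped to 1.01 and 1.82 at 1 h, and rose to 24.5 and 24.6 at 2 h (log2 change 4.10 ± 0.20, adjusted p = 2.04e-07).

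**Figure D4:**
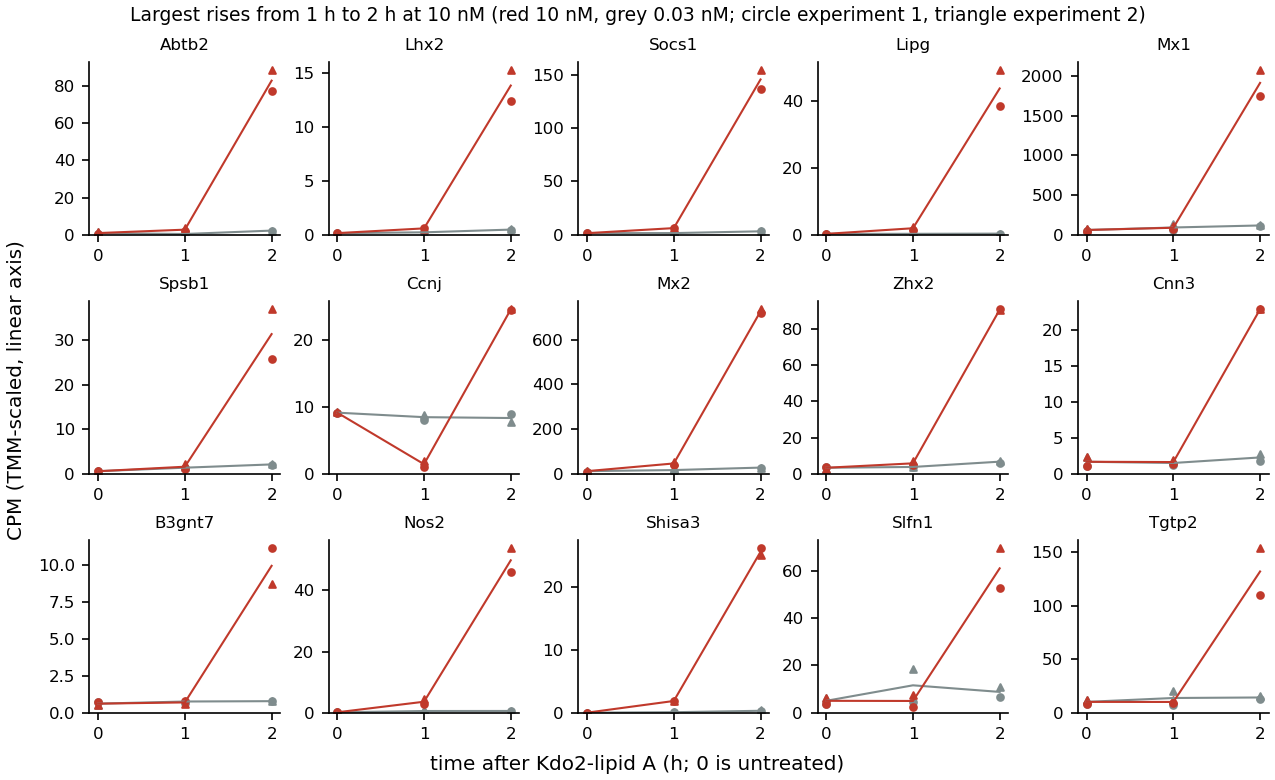
Levels (CPM, linear axes) of the 15 genes with the largest rises from 1 h to 2 h at 10 nM, against hours of treatment at 10 nM (red) and 0.03 nM (grey), with 0 h the untreated cells; circles are experiment 1, triangles experiment 2 and lines the mean. Each panel is low at 1 h and high at 2 h at 10 nM, and Ccnj dips at 1 h.

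Components of the TLR4 pathway itself moved little in the median (log2 change 0.13). Of 30 genes, 12 were higher and 5 lower (40% and 16.7%, against 21.9% and 21.8% of all tested genes). The falls numbered 3 without the first library at 2 h and 8 with library totals, with the compared groups alone and without the second library at 0.03 nM and 2 h. Map3k8, the kinase that links NF-kB signalling to ERK, rose from 58.4 and 53.5 to 207.1 and 198.5 CPM (1.86 ± 0.09). Ly96, the MD-2 subunit that binds lipid A, rose from 11.97 and 13.4 to 28.9 and 27.3 CPM, and the adaptor Tirap from 17.4 and 17.2 to 43.1 and 42.8. Tab1 fell from 12.6 and 12.4 to 3.68 and 4.55 CPM. Tlr4 itself was not called (log2 change -0.00), whereas Tlr3, the receptor of double-stranded RNA, rose by 1.54 ± 0.15.

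On the cell surface, 13 of 18 co-stimulation and adhesion genes rose and 3 fell. Cd274, which encodes PD-L1, rose from 142.1 and 158.1 to 566.3 and 680.0 CPM (2.05 ± 0.16), Cd69 from 90.8 and 91.1 to 322.0 and 405.3 (1.99 ± 0.17), and Cd86 from 46.4 and 47.8 to 112.6 and 107.8 (1.23 ± 0.07). Cd83 fell from 2342 and 2111 to 998.5 and 926.4 CPM. Among 31 G protein-coupled receptors 12 rose and 11 fell (38.7% and 35.5%, against 21.9% and 21.8% of all tested genes). Fewer falls were called in some fits without single libraries. Besides Cxcr4, Lpar6 and Lpar5 (14.8 and 14.5 to 1.97 and 2.26 CPM), which fell, Adora2a, an adenosine receptor that dampens macrophages, rose from 26.7 and 28.8 to 112.1 and 121.1 CPM. In the Notch pathway 5 of 9 genes rose and 1 fell (3 rose without either library at 2 h or the second at 1 h): Notch1 rose from 123.6 and 132.9 to 380.7 and 412.2 CPM and the ligand Jag1 fell from 211.8 and 232.2 to 99.0 and 111.5. The ligand Dll1 rose from 0.289 and 0.212 to 8.80 and 9.47 CPM (18 counts over the libraries at 1 h).

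Genes of survival and cell death gave no common direction. Of 14 BCL2 family genes, 5 rose and 4 fell (35.7% and 28.6%, against 21.9% and 21.8% of all tested genes), and 7 fell with library totals. Pmaip1, which encodes the killer protein NOXA, fell from 142.2 and 129.5 to 32.8 and 35.6 CPM, and the survival gene Mcl1 from 2646 and 2552 to 1220 and 1272. Bmf, another killer, went from 57.2 and 56.4 CPM untreated to 4.51 and 4.78 at 1 h and 0.788 and 1.13 at 2 h. Of 13 inflammasome sensors and caspases, 7 rose and 3 fell (53.8% and 23.1%, against 21.9% and 21.8% of all tested genes). Casp1 rose by 1.05 ± 0.09 (log2, SE), Casp4 by 1.03 ± 0.12 and Gsdmd, the pore-forming protein they cleave, by 0.77 ± 0.08.

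In glucose metabolism, 9 of 22 genes rose and 2 fell (40.9% and 9.09%, against 21.9% and 21.8% of all tested genes). With library totals 5 rose, and both counts changed in fits without single libraries. The largest rises in the list were those of Pfkfb3, which makes the activator of phosphofructokinase, from 152.6 and 153.5 to 570.6 and 587.2 CPM (1.92 ± 0.09), Hk2 from 90.8 and 92.5 to 292.6 and 311.5 (1.72 ± 0.11), and Pfkp from 70.8 and 70.0 to 198.4 and 200.8 CPM, of which Pfkp overlaps Pitrm1 on the opposite strand. Pgk1 (0.27) and Gapdh (0.23) were called higher by small amounts, calls lost in 5 and 10 of the alternatives, and Pfkfb4 (-1.09) and Pfkm (-0.48) were lower. Txnip, an inhibitor of glucose uptake, was 789.3 and 786.4 CPM untreated, 39.0 and 52.4 at 1 h and 131.8 and 139.0 at 2 h, and its exons overlap Gm15441 on the opposite strand. Of 18 cholesterol synthesis genes 2 rose and 4 fell (11.1% and 22.2%, not above the shares of all tested genes). The falls numbered 1 without the first library at 1 h, 2 without the first at 2 h or the second at 1 h, and 8 with library totals. Of 12 LXR targets 1 rose and 3 fell (8.33% and 25%, against 21.9% and 21.8% of all tested genes). The rise, that of Lpcat3, was not called in 9 of 18 alternatives, DESeq2 and library totals among them. Mylip, which degrades the LDL receptor, fell from 194.1 and 172.5 to 64.8 and 66.2 CPM.

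Ribosomal protein and oxidative phosphorylation genes changed by small amounts that depend on the scaling. Of 24 ribosomal proteins 7 rose (median log2 change 0.23), and of 24 oxidative phosphorylation subunits 7 rose (median 0.18), or 29.2% in each list against 21.9% of all tested genes, with none lower. These counts ran widely in the alternatives. With library totals none rose, and with the compared groups alone 23 ribosomal proteins did. Without the first library at 0.03 nM and 2 h, 22 ribosomal proteins and 17 subunits rose, and without the second at 1 h none did in either list. Of 22 ribosome biogenesis genes 13 rose (6 or 7 without any 1 of the libraries at 10 nM; 6, with 3 lower, with library totals), and Wdr43, a factor of the small subunit, rose from 35.8 and 36.7 to 117.0 and 131.2 CPM (1.77 ± 0.08). Of 24 cell cycle genes 11 fell and 1, Ccnd2, rose; the falls numbered 5 or 6 without the first or second library at 1 h or the second at 2 h, and 19 with library totals. Ccnd2, a D-type cyclin, rose from 19.1 and 23.6 to 111.0 and 153.4 CPM, and Ccne2 fell from 6.80 and 7.67 to 3.15 and 2.154. Of 13 reference genes 4 rose and 1 fell (30.8% and 7.69%, against 21.9% and 21.8% of all tested genes). With library totals 2 rose and 3 fell, and the count of rises changed in fits without single libraries. Actb, often used as a constant reference, had 5982 and 5682 CPM untreated, 7690 and 8057 at 1 h, and 11140 and 11500 at 2 h (0.52 ± 0.07, adjusted p = 0.000148). Of 22 heat shock and unfolded protein response genes 7 rose and 6 fell (31.8% and 27.3%, against 21.9% and 21.8% of all tested genes). With library totals 2 rose, and both counts changed in fits without single libraries. The largest change was a fall of Sesn2 from 14.92 and 14.96 to 4.43 and 5.16 CPM.

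Of 24 macrophage identity genes, 5 rose and 6 fell, 20.8% and 25% against 21.9% and 21.8% of all tested genes (9 rose without either library at 0.03 nM and 2 h). Cebpa, a transcription factor of the myeloid lineage, fell from 45.0 and 41.2 to 18.6 and 17.0 CPM. Msr1, a scavenger receptor, rose from 301.2 and 307.8 to 795.5 and 813.2 CPM.

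The same step in time changed fewer genes at 0.03 nM. There, 721 of 12918 tested genes (5.58%) were called, 488 higher and 233 lower, of which 114 rose and 8 fell at least 2-fold. The change from 1 h to 2 h differed between doses, by the interaction of dose and time, for 2985 genes (23.1%). The libraries at 0.03 nM and 2 h stood apart from the rest: their experiments differed by an SD of 0.306 in log2 CPM over genes, against 0.219 to 0.250 in the other groups, and this difference went with exonic length (Spearman's rho -0.61, against -0.01 to 0.29). Their part in the count at 0.03 nM was not tested beyond leaving each out, which gave 3991 and 1178 calls, while leaving out the libraries at 1 h gave 249 and 407. At 10 nM, 7126 genes were called without both of these libraries.

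For the antiviral list the changes at the 2 doses were far apart. Its median log2 change was 1.64 at 10 nM and 0.13 at 0.03 nM, the interaction was called for 31 of 33 genes, and 1 gene rose at 0.03 nM. Mx1 had 52.6 and 128.3 CPM at 1 h and 108.8 and 123.4 at 2 h of 0.03 nM, where the experiments overlap between times (interaction log2 4.03, adjusted p = 4.41e-05). For the GBP and IRG list the medians were 2.41 and 0.09, and the interaction was called for 12 of 13 genes. Immediate-early genes had medians of -1.04 and -0.10, with 22 of 30 interactions called.

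Some genes went opposite ways at the 2 doses. Tnf had 129.8 and 186.9 CPM at 1 h and 222.4 and 243.4 at 2 h of 0.03 nM (log2 change 0.57 ± 0.13, adjusted p = 0.0319), against the fall at 10 nM, and the interaction was -1.61 (adjusted p = 0.000166). Cxcl2 rose at 0.03 nM from 50.8 and 77.7 to 92.4 and 97.1 CPM and Cxcl1 from 12.8 and 11.95 to 19.0 and 17.7 CPM, levels far below those at 10 nM at either time. The same held for Cd83 (log2 change 1.00 at 0.03 nM and -1.21 at 10 nM), Jag1 (1.49 and -1.08), Dusp4 (0.81 and -1.85), Btg1 (0.52 and -0.72) and Herpud1 (0.75 and -0.70). Irf8 (-0.42 and 1.31), Hk2 (-0.51 and 1.72), Txnip (-0.57 and 1.57) and Socs6 (-0.48 and 0.33) fell at the low dose and rose at the high one. The rise of Socs6 at 10 nM was not called with library totals (0.14, adjusted p = 0.251), without the first library at 1 h (0.175) or without the second at 2 h (0.182). Each of these 12 genes, of the 178 named, was called at both doses and in the interaction. Whether their calls at 0.03 nM hold in the alternatives was not tested. With the compared groups alone, calls at that dose went from 488 higher and 233 lower to 270 and 116.

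Other genes rose more at the low dose. Irg1 rose from 17.7 and 57.0 to 305.5 and 352.9 CPM at 0.03 nM (log2 change 3.27 ± 0.39, against 1.06 ± 0.36 at 10 nM; interaction -2.21, adjusted p = 0.0188). That interaction was lost in 4 of 17 alternatives, without the block, with no filter and without either library at 0.03 nM and 2 h (adjusted p up to 0.166; values from -3.02 to -1.62). Il12b rose from 1.16 and 1.32 to 4.68 and 3.80 CPM (1.77 ± 0.14, against 0.65 ± 0.08). Ccl3 rose from 37.7 and 54.9 to 104.8 and 125.5 CPM at 0.03 nM and was not called at 10 nM. Cxcl10 rose by 1.72 ± 0.27 at 0.03 nM and 1.64 ± 0.26 at 10 nM, and a difference between doses was not detected (interaction -0.08, adjusted p = 0.916). Fos had 220.5 and 317.6 CPM at 1 h of 0.03 nM, both above its levels at 1 h of 10 nM, and 136.9 and 171.1 at 2 h. For Nfkb1, Nfkb2, Cd69, Adora2a, Casp4 and Ccl22 the interaction was likewise not called, with log2 values of -0.17 to 0.21.

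**Figure D5:**
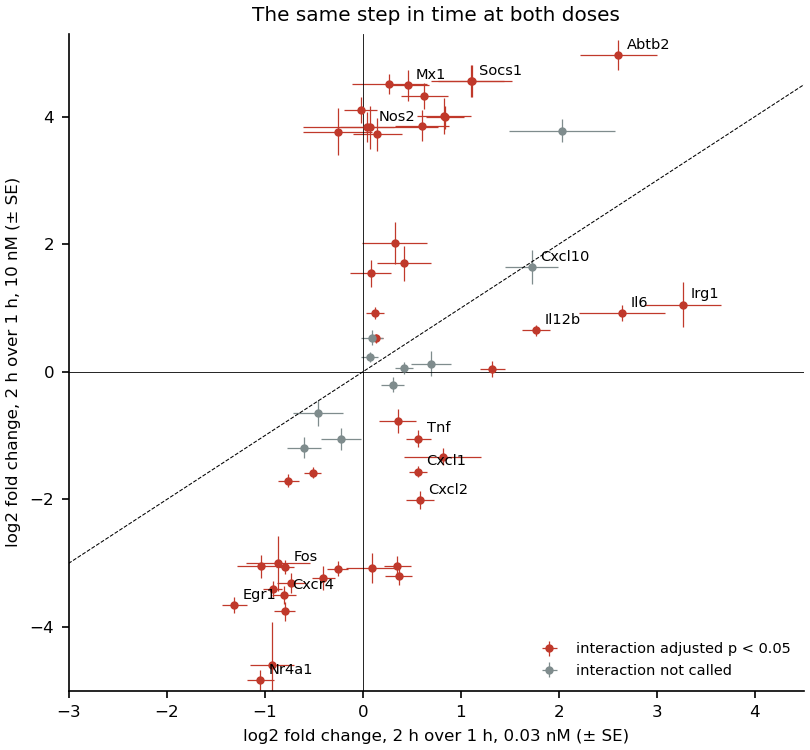
Log2 fold change from 1 h to 2 h at 10 nM (vertical axis) against that at 0.03 nM (horizontal axis), with standard errors, for the 30 largest changes and the panel genes; the dashed line marks equal change, and colour marks the interaction call. Mx1 lies high above the line near 0 on the horizontal axis, Cxcl10 lies on the line, and Cxcl1, Cxcl2 and Tnf lie in the lower right.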

How the data were processed

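Polyadenylated RNA of 10 libraries was counted, and the comparison uses the 4 libraries at 10 nM. The authors deposited raw counts, whole numbers of reads per gene over the exons of mm9 gene models, per the file headers. The submitters' processing notes name featureCounts 1.4.5-p1, TopHat2 2.0.11, bcl2fastq 2.15.0.4, DESeq2 and mm9. Whether strand was used in counting is not given in the sources used here, so genes with exons on opposite strands cannot be separated. Library totals ran from 33179599 to 42167096 counts.

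The tests were run in R 4.3.3 with edgeR 4.0.16. filterByExpr chose the genes, TMM scaled the libraries, and 1 robust quasi-likelihood model with a mean per group and the experiment number as a block was fitted to all 10 libraries (4 residual degrees of freedom). P-values were adjusted by Benjamini and Hochberg's method over 12918 genes, with calls at 0.05. Levels are CPM (reads of a gene relative to the library total, scaled to a common size) after TMM. The series' design text calls the experiments independent, and the number in each label marks them. Deviations from group means correlated between same-numbered libraries at -0.10 to 0.40 (median 0.19, above 0.1 in 7 of 10 pairs of groups; 0.16 for the 10 nM groups).

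Named genes are the 15 called genes that rose most and the 15 that fell most, provided that the mean log2 CPM was 1 or more and the experiments did not differ in direction, up to 5 called members of each of 40 gene lists (the 4 of smallest p where more were called), and a panel of 28 genes. Other genes named (among them Btg2, Myc, Rsad2, Ifit1, Iigp1, Tlr3 and Nov) were added after their values were seen, and some genes the rule names are not reported here. Members and lists were chosen with earlier results of these data known. Promoters (250 bases before to 50 after the start) are RefSeq's on GRCm38.p6, matched by symbol for 10145 of the 12918 genes, and 3' UTR lengths and sequences come from the GENCODE GRCm38 annotation, matched for 12134. Intervals on shares are Wilson 95% intervals and cover counting error only. Alternatives were limma-voom (limma 3.58.1), DESeq2 1.42.0, other scalings, no filter, the fit without the block, the compared groups alone, and each library left out.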

Additional observations from a re-analysis of the deposited data

Results flagged for a closer look

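The change from 1 h to 2 h differed between 10 nM and 0.03 nM for 2985 genes by the interaction test of the edgeR fit (adjusted p below 0.05). The values below are the log2 change at 10 nM minus that at 0.03 nM, for the largest changes, the panel genes and the named genes called in opposite directions at the 2 doses, all with at least 10 counts in each treated group. Each rests on 2 libraries a group, and those at 0.03 nM and 2 h stood apart from the rest.

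Early genes and inhibitors had a more negative change at 10 nM. For Egr2, Plk3 and Dusp8 among them, the fitted change at 0.03 nM was not a fall. The difference was -3.78 for Nr4a1, -3.57 for Egr2, -3.40 for Plk3, -3.17 for Dusp8 and -2.83 for Id3. It was -2.35 for Egr1, -2.27 for Fos, -2.01 for Fosb, -1.07 for Ier3 and -0.94 for Zfp36. For genes that stepped down from the untreated level it was -2.96 for Lpar6, -2.83 for Cnr2, -2.70 for Cxcr4, -2.58 for Zfp36l2 and -2.49 for BC031353. It was -2.13 for Lmln, which fell only after 1 h at 10 nM.

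Cytokines and chemokines with a more negative change at 10 nM were Cxcl2 (-2.59), Cxcl1 (-2.13), Ifnb1 (-2.15), Il6 (-1.72), Tnf (-1.61), Ccl3 (-1.27), Il1b (-1.12) and Il12b (-1.12), and Irg1 differed by -2.21.

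Further named genes fell at 10 nM and rose at 0.03 nM, each by the edgeR test: Dusp4 (difference -2.66), Jag1 (-2.56), Cd83 (-2.21), Herpud1 (-1.45) and Btg1 (-1.245). Hk2 (2.23), Txnip (2.14), Irf8 (1.73) and Socs6 (0.82) rose at 10 nM and fell at 0.03 nM.

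A more positive change at 10 nM was found for Lipg (4.24), Ccnj (4.12), Mx1 (4.03), Slfn1 (4.02), B3gnt7 (3.79), Nos2 (3.76), Spsb1 (3.70) and Tgtp2 (3.57). It was also found for Socs1 (3.46), Lhx2 (3.45), Cnn3 (3.26), Mx2 (3.18), Zhx2 (3.15) and Abtb2 (2.36), and at smaller size for Ccl5 (1.70), Irf7 (1.46), Isg15 (1.28), Irf1 (0.80) and Actb (0.39).

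Some of these differences lost their call in part of 17 alternatives. For Isg15 (adjusted p = 0.0463) this was so in 13, among them the fit without the block, DESeq2, limma-voom, library totals and 7 of the fits without 1 library, with values from 0.63 to 1.75. Nos2 lost it in 4: its difference was 0.55 (adjusted p = 0.872) without the second library at 0.03 nM and 1 h, and it was lost with DESeq2 and without either library at 0.03 nM and 2 h. Abtb2 lost it in 3: without the block, without the second library at 0.03 nM and 2 h, and without the second at 0.03 nM and 1 h (1.29, adjusted p = 0.416). Ccl5 lost it in 8 (highest adjusted p = 0.231; 0.93 to 2.21), among them the fit without the block and those without either untreated library, either library at 0.03 nM and 2 h, the first at 10 nM and 2 h or the second at 10 nM and 1 h. Actb lost it in 7 (up to 0.104), with library totals and without any 1 of the libraries at 10 nM or at 0.03 nM and 1 h. Irf7 (up to 0.217) and Irg1 (up to 0.166) lost it without the block and without either library at 0.03 nM and 2 h, and Irg1 with no filter too. Il1b (up to 0.208) lost it in these settings other than the filter and without the first library at 10 nM and 1 h. Il6 lost it with limma-voom and without the first library at 0.03 nM and 1 h (-1.005, adjusted p = 0.168) or either first library at 10 nM. Lmln (up to 0.0736; -3.58 to -1.32) lost it without the first library at 10 nM and 2 h, either library at 10 nM and 1 h, or the second at 0.03 nM and 1 h. Ifnb1 (0.112), Slfn1 (0.0628) and Ccl3 (0.0614) lost it without the second library at 0.03 nM and 2 h, and Zfp36 (up to 0.0645) without either of that group.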

How the results depend on the processing

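The number of genes changed at 10 nM, 5645 with the experiment number as a block, was 5526 without the block (the alternative to the pairing; 5435 genes shared), 5239 with DESeq2, 5563 with limma-voom, 5675 with DESeq2's size factors, 6180 with library totals, 5394 with no filter and 7099 with the compared groups alone. It ran from 3899 to 7172 with 1 library left out. At 10 nM no gene called both in the reported fit and in an alternative changed direction. Without the block 660 genes were called at 0.03 nM and 2846 in the interaction. At 0.03 nM, 721 calls became 386 with the compared groups alone and 249 to 3991 with 1 library left out, and the interaction ran from 1904 to 4512, so these 2 counts rest on single libraries; the cause was not tested. Of 174 named genes called at 10 nM, 146 kept their call in every alternative run, 28 lost it in at least 1 and none reversed; of 135 interactions 99 kept it. In the shorter window from 100 bases before the start, the shares of promoters with a motif fell, as fewer bases were searched: for genes higher, lower and all tested, to 5.21%, 2.12% and 3.18% (GAAANNGAA), 3.72%, 2.69% and 3.06% (GGNNTTTCC), 2.06%, 2.72% and 2.39% (TGACGTCA) and 2.13%, 1.58% and 1.95% (TGAGTCA), and to 0.0% (lower) and 0.0233% (all) for CCATATTAG. Among genes that rose at least 2-fold they were 13.3% (GAAANNGAA), 7.16% (TGAGTCA) and 0.0% (CCATATTAG). The AU-rich element among genes changed at least 2-fold was an alternative chosen after seeing the data. With 2 libraries a group, small changes of genes with few counts are not resolved.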

Other observations

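Nov, which encodes the secreted matricellular protein CCN3, had 41932 counts (1212 CPM) in the library of experiment 1 at 10 nM and 1 h, and 17 counts (0.397 CPM) in experiment 2 of the same group. In the other 8 libraries it had 8 to 83 counts. Its log2 change from 1 h to 2 h was -10.69 in experiment 1 and 2.80 in experiment 2, and it was not called (adjusted p = 0.243).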
